A study of Rattus norvegicus with 19 samples.

Results

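The 8 left ventricles of rats given paricalcitol, of 19 in the series, differed widely in RNA of red blood cells, and their other genes were compared along that difference. On each array the log2 levels of Alas2, Slc4a1 and Ahsp were averaged, and the 4 arrays with the highest average (here high arrays) were set against the 4 with the lowest (low arrays). The arrays of each side were thus chosen by their own RNA levels, and the split is no treatment of the study. Each drug group fell 2 and 2: replicates 1 and 4 of paricalcitol alone and replicates 1 and 4 of enalapril plus paricalcitol (here the combination) were high, and replicates 2 and 3 of both groups were low.

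The rats were male Dahl salt-sensitive rats (Harlan SS/Hsd), a model of salt-driven hypertension, and 1 array was hybridised per sample. All ate 6% NaCl from 6 weeks of age. The 8 rats were 15 weeks old and had 5 weeks of that diet and then 4 more weeks of it with paricalcitol, a vitamin D receptor agonist injected at 200 ng 3 times a week; in 4 of them an osmotic pump also delivered enalapril, an inhibitor of angiotensin-converting enzyme, at 90 ug a day. The 11 arrays outside the split held 3 rats given enalapril and vehicle and 4 given vehicle, both 15 weeks old, and 4 untreated baseline rats taken at 11 weeks, before the added 4 weeks. The submitters' sample numbers form a separate run within every group, and group therefore cannot be told apart from cohort.

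Red cells of mammals lose their nucleus, and the youngest of them, the reticulocytes, still carry RNA for haemoglobin, haem synthesis and the membrane skeleton while they clear their mitochondria. RNA from a whole ventricle can therefore include that of blood left in its vessels. The ventricular wall itself lives mainly on fatty acids burned in mitochondria. In such bulk RNA, fewer cells of a type and less RNA per cell cannot be told apart.

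Values are log2 of normalized intensity plus 16, so that 4 is the floor and values at it have no order, and differences are high minus low. In sentences that list arrays, the high values are those of paricalcitol 1 and 4 and combination 1 and 4, and the low values those of paricalcitol 2 and 3 and combination 2 and 3. Before normalization, array medians ran from 47.0 to 66.1 intensity units in high and from 43.9 to 50.6 in low arrays. The log2 ratio of 3' to 5' probe sets for actin was 0.50 to 0.60 in high and 0.48 to 0.54 in low arrays, and their part in the results was not tested. Heart muscle genes were among the brightest on all arrays: Tnnt2, of the thin filament, lay between 14.21 and 14.25 in high and between 14.18 and 14.32 in low arrays.

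The 3 marker genes chose the arrays, and their values are a description. Alas2, which catalyses the first step of haem synthesis in red cell precursors, stood at 11.21, 11.66, 11.60 and 11.37 in high arrays, against 9.93, 9.23, 9.17 and 9.63 in low arrays. Slc4a1, the anion exchanger of the red cell membrane, stood at 10.07, 10.50, 10.40 and 10.44 in high arrays and 9.05, 8.17, 8.74 and 8.66 in low arrays. Ahsp, a chaperone of alpha globin, stood at 8.55, 8.72, 8.23 and 8.99 in high arrays and 7.08, 7.01, 6.62 and 6.56 in low arrays. All 3 separated the groups without overlap. The marker averages were 9.94, 10.29, 10.08 and 10.27 in high arrays, against 8.69, 8.14, 8.18 and 8.29 in low arrays, so the arrays just inside and outside the threshold were at 9.94 and 8.69. The 11 other arrays had averages from 8.81 to 10.46, so it was the low arrays that lay below every other array, and the high arrays that lay within their range.

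**Figure D1:**
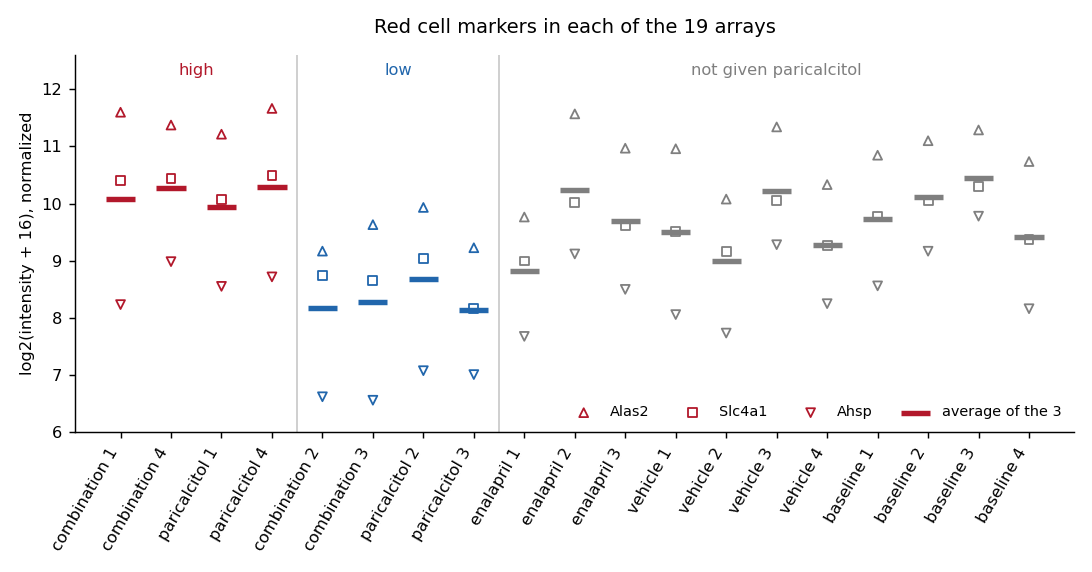
Normalized log2(intensity + 16) of Alas2, Slc4a1 and Ahsp (open symbols) and their average (bars) in each of the 19 arrays, with high arrays left of low arrays and the 11 arrays not given paricalcitol at the right. The 4 low averages run from 8.14 to 8.69, under all others.

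Promoters of genes from red cells are shown because red cell precursors use GATA factors, and the AGATAA motif (TTATCT on the other strand) can be looked for directly. The sequences are the 250 bases before RefSeq's gene start on GRCr8, given 5′ to 3′ along the gene, with each motif in capitals. Rhd and Hemgn, of the red cell list, and Fech, of the list of haem synthesis and handling, have a window that holds the motif. Another window of Hemgn, not printed, holds none. Mkrn1, of the red cell list, is one of the most separated genes, and its window holds no such letters.
Fech (chr18:60248526-60248775, minus strand): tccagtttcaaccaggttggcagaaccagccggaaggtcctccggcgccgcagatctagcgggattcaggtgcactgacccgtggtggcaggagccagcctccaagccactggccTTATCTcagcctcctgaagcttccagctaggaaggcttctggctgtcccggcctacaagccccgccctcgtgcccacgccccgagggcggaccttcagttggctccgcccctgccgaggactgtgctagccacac
Rhd (chr5:152370950-152371199, plus strand): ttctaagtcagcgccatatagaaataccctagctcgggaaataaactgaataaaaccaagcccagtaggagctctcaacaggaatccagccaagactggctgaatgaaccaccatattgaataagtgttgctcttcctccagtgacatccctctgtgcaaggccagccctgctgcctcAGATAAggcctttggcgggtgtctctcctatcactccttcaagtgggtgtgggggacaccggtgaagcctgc
Hemgn (chr5:65485822-65486071, minus strand): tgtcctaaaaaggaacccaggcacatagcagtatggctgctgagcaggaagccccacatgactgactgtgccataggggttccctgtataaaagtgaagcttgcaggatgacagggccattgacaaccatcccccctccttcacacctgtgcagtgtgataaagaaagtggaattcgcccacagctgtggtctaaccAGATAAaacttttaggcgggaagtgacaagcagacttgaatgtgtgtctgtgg
Mkrn1 (chr4:69163986-69164235, minus strand): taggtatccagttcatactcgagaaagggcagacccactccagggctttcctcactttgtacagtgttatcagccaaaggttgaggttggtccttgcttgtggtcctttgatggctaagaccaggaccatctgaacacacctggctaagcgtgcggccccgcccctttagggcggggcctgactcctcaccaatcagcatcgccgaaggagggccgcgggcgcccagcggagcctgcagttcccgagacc
Of the 21 windows found for 20 of the 27 measured red cell genes, which do not include Fech, 6 held the motif (28.6%). The share was 6.9% of the 13241 windows of genes tested, 6.84% of those of the genes that passed as higher and 7.49% of those that passed as lower. A match of letters is not a bound site.

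Across the 14214 genes tested beside the markers, 692 passed limma's moderated test at a Benjamini-Hochberg adjusted p under 0.05, with drug group as a block; these are 4.87% of genes, 341 higher (2.4%) and 351 lower (2.47%) in high arrays. At an unadjusted p under 0.05 there were 3154 (22.2%), and 1979 genes (13.9%) had no overlap between high and low arrays, 946 higher (6.66%) and 1033 lower (7.27%). Of the 692, all 4 low arrays lay outside the range of the 11 other arrays for 189 genes (27.3%), and all 4 high arrays for 46 (6.65%), against 3.02% and 0.619% of all genes tested. The count depended on the equalisation of arrays and on single arrays: 13 genes passed on the deposited values as they stood, and 38 to 404 when 1 array was left out, the lowest without combination replicate 2. The p-values measure the spread between 8 arrays taken as independent, whose number limits the precision.

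Most red cell genes other than the markers had higher means in high arrays. Of the 27 measured of 40 listed, 22 had a higher mean in high arrays and 9 passed (33.3%), all of them higher, with a median difference of 0.80. Over all genes tested, 50.9% had a higher mean, 4.87% passed and the median was 0.00. Since these genes follow the RNA that chose the arrays, their p-values carry no weight here. Hbb, the beta globin, was near the top of the scale at 14.21, 14.16, 14.28 and 14.18 in high arrays, against 13.94, 13.69, 13.62 and 13.91 in low arrays, a difference of 0.42 (SE 0.09, adjusted p = 0.0655 by limma) that missed the threshold. Hba-a3, an alpha globin gene named after its values were seen, averaged 0.91 higher (SE 0.13).

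Of the genes listed for the red cell membrane and its skeleton, some separated the arrays and others did not. Which cells of the ventricle their RNA came from was not tested. Of 11 measured of 15 listed, 8 had a higher mean in high arrays, 4 passed, all higher, and 5 had no overlap. Of all genes tested, 4.87% passed and 13.9% had no overlap. Rhd, the Rh blood group protein, read 8.20, 8.48, 8.37 and 8.42 in high arrays and 6.94, 6.86, 6.06 and 6.34 in low arrays, a 3.51-fold difference. Epb42, the membrane skeleton protein 4.2, read 5.63, 6.48, 5.98 and 6.13 in high arrays, while 3 of the 4 low arrays were at the floor and the other at 4.09. Add2, an adducin of the skeleton, was at the floor in all low arrays and between 4.83 and 6.64 in high arrays. Epb41, protein 4.1, was 2.04-fold higher. These 4 were without overlap between the groups, as was the blood group protein Kel, with a difference of 1.76 that did not pass (adjusted p = 0.0904). The others overlapped and did not pass: the skeleton genes Ank1, Sptb, Tmod1 and Dmtn had differences of -0.23, -0.15, 0.03 and 0.24, the glycophorin Gypc one of -0.18 and Rhag, the Rh-associated glycoprotein, one of 0.76.

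Genes that serve haem, iron and gas exchange moved less evenly. Fech, which inserts iron into the porphyrin ring, read 10.95, 11.15, 11.09 and 11.35 in high arrays, against 10.64, 10.29, 10.45 and 10.53 in low arrays, a 1.58-fold difference. Slc25a37, the mitochondrial iron importer mitoferrin, was 1.01 higher (SE 0.12), and Ncoa4, the receptor that sends ferritin for breakdown, 0.55 higher (SE 0.10). Abcb10, a mitochondrial transporter needed for haem synthesis, was lower by -0.38 (SE 0.07, adjusted p = 0.0403), while another probe set of it differed by -0.004 and did not pass. Car2, a carbonic anhydrase, was 3.28-fold higher and Bpgm, which makes the phosphoglycerate that lowers haemoglobin's oxygen affinity, 2.12-fold. In the list of haem synthesis and handling as a whole, 11 of 18 genes were higher and 7 lower, with a median difference of 0.03. In each direction 1 passed, together 11.1% against 4.87% of all genes. Tfrc, the transferrin receptor, had a difference of 1.38 (SE 0.50, adjusted p = 0.177) and did not pass.

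A gene outside the red cell list had the largest difference of all genes that passed. Alox15, a lipoxygenase that in rabbit reticulocytes attacks mitochondrial membranes, read 12.21, 12.89, 12.62 and 12.50 in high arrays, against 8.59, 7.91, 5.59 and 8.12 in low arrays, a difference of 5.00 (SE 0.63) or 32.1-fold. The 11 other arrays had Alox15 between 10.48 and 12.18, above all 4 low arrays. The slope of Alox15 on the marker average in those 11 arrays was 0.86 (SE 0.19) and did not pass (adjusted p = 0.415 by limma). Mkrn1, a makorin ubiquitin ligase, read 9.58, 9.51, 9.71 and 9.39 in high arrays, against 8.07, 7.74, 8.14 and 8.01 in low arrays. Ube2o, a ubiquitin enzyme that in mice clears proteins from maturing reticulocytes, was 1.42 higher (SE 0.17). Bnip3l, a receptor for the removal of mitochondria, was 0.55 higher (SE 0.10). Hemgn, a nuclear protein of red cell precursors, was 1.56 higher (SE 0.12), whereas the transcription factors Klf1 and Gata1 overlapped between the groups, with adjusted p = 0.297 and 0.463.

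The 11 arrays of baseline, vehicle and enalapril rats, which the split did not use, were fitted with the slope of each gene on the marker average, with group as a block. Of the 14214 genes, 9 passed (0.0633%), all rising, with 1074 at an unadjusted p under 0.05 (7.56%). By limma with the replicate number as a further fixed block, 0 passed and 1209 were at an unadjusted p under 0.05. The values that follow are from the fit without that block. Fech rose by 0.45 log2 units per log2 unit of the markers (SE 0.04, adjusted p = 0.00996 by limma) and Mkrn1 by 0.67 (SE 0.07, adjusted p = 0.0287). Ube2o rose by 0.47 (SE 0.04, adjusted p = 0.0169), and Bpgm by 0.67 (SE 0.07) and Car2 by 1.10 (SE 0.12), each with adjusted p = 0.0391. Also past the threshold were Myo5c, an unconventional myosin, at 0.89 (SE 0.06, adjusted p = 0.00657), and Cd52, a surface glycopeptide known from lymphocytes, at 1.13 (SE 0.13, adjusted p = 0.0397). Rsad2, an antiviral protein induced by interferon, rose by 0.90 (SE 0.11, adjusted p = 0.0429), and Aif1l, an actin-binding protein, by 0.51 (SE 0.06, adjusted p = 0.0391). Of the 9, 8 also passed between high and low arrays (0.0563% of genes tested), and Aif1l did not, with a difference of 0.69 (adjusted p = 0.0519). With 1 of the 11 arrays left out, 0 to 8 genes passed in limma, with 0 without baseline replicate 3, vehicle replicate 3, enalapril replicate 1 or enalapril replicate 2, where 1000, 1135, 760 and 815 had an unadjusted p under 0.05. Without all 4 baseline arrays 0 passed, with 1285 at an unadjusted p under 0.05.

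Cd52 and Rsad2 passed in both sets of arrays, in each case with higher levels where the markers were higher. Cd52 read 7.88, 8.17, 8.16 and 8.25 in high arrays, against 6.15, 5.37, 5.08 and 6.31 in low arrays. Rsad2 read 10.40, 10.15, 10.34 and 10.69 in high arrays, against 9.39, 8.87, 9.07 and 9.03 in low arrays. Both were without overlap, while the interferon-stimulated list to which Rsad2 belongs went the other way: 17 of its 19 measured genes had lower means in high arrays, with a median of -0.39. Besides Rsad2, Usp18, a protease that removes the ubiquitin-like ISG15, passed in that list and was lower by -0.59 (SE 0.11, adjusted p = 0.043). Gch1, the first enzyme of tetrahydrobiopterin synthesis, named after its values were seen, was 2.96-fold higher in high arrays with adjusted p = 0.00854.

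**Figure D2:**
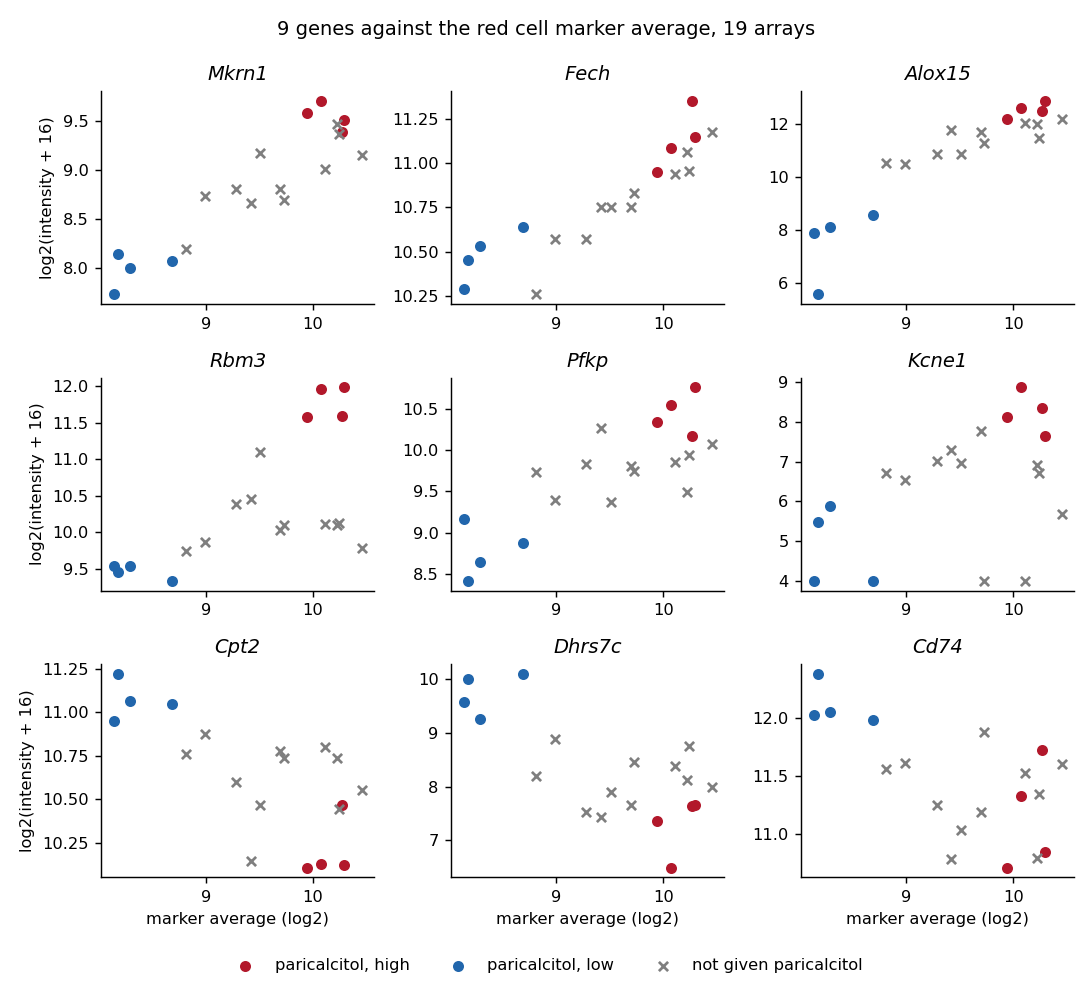
Level of 9 genes, as log2(intensity + 16), against the average of the 3 red cell markers in 19 arrays: high (red) and low (blue) arrays given paricalcitol and the 11 others (grey crosses). Mkrn1 and Fech are higher where the markers are higher in both sets of arrays, while Rbm3 lies between 11.58 and 11.98 in high arrays, above every other array, and Cpt2 between 10.95 and 11.22 in low arrays, above every other array.

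Most genes of the high and low contrast did not reach an unadjusted p under 0.05 in the 11 other arrays. Of the 341 genes that passed as higher, 59 also rose in the 11 other arrays at an unadjusted p under 0.05, and of the 351 that passed as lower, 13 also fell there; 9 of the 692 went the opposite way at that level. The same direction was thus found at that level for 10.4% of the 692, against 4.63% of all genes tested, and the opposite for 1.3%, against 2.92%. The sign alone was the same for 62.4% of the 692 and for 54.1% of all genes. The difference of the slopes, in the 8 arrays minus the other 11, was tested in 1 fit of 19 arrays, a test added after the data were seen. It passed for 4 genes (0.0281%), with 1598 at an unadjusted p under 0.05 (11.2%). Polr2i, a subunit of RNA polymerase II, had 8.26, 8.17, 8.23 and 8.26 in high arrays and 8.77, 8.87, 8.91 and 8.85 in low arrays, and a difference of slopes of -0.35 (SE 0.04, adjusted p = 0.0238). Apoo, a protein of mitochondrial cristae, had -0.25 (SE 0.03) and Ube2b, a ubiquitin-conjugating enzyme, -0.31 (SE 0.04), both with adjusted p = 0.0269, and Ddx18, an RNA helicase, -0.60 (SE 0.09, adjusted p = 0.0345). Another bright probe set of Ube2b differed by -0.14 between high and low arrays and did not pass there (adjusted p = 0.602 by limma). Ddx18 itself did not pass between high and low arrays, with a difference of -0.44 (adjusted p = 0.0569 by limma). Its dimmer probe set differed by -0.11 and did not pass either. With 1 of 19 arrays left out, 0 to 11 passed in limma. On the deposited values without equalisation 0 passed, with 2948 at an unadjusted p under 0.05.

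Genes of fatty acid uptake and oxidation had lower means in high arrays throughout. All 29 measured of 30 had a lower mean. Of them, 12 passed as lower (41.4%, against 2.47% of all genes) and none as higher. The median difference was -0.40 (-0.41 in paricalcitol arrays and -0.43 in combination arrays). Slc27a1, a fatty acid transporter, read 8.83, 8.93, 8.85 and 9.07 in high arrays, against 9.58, 9.61, 9.83 and 9.60 in low arrays. Cpt2, which completes the carnitine shuttle into mitochondria, read 10.11, 10.13, 10.13 and 10.47 in high arrays, against 11.05, 10.95, 11.22 and 11.06 in low arrays, a difference of -0.86 (SE 0.08, adjusted p = 0.0121). Both genes separated the arrays without overlap. Hadh, of beta oxidation, was lower by -1.04 (SE 0.17) and Etfdh, which passes electrons from it to the respiratory chain, by -0.65 (SE 0.07). Cd36, a fatty acid translocase, was lower by -0.40 (SE 0.07, adjusted p = 0.0401). Cpt1b, the gate of the shuttle in muscle, and Pdk4, a brake on pyruvate oxidation, had differences of -0.21 and -1.32 and did not pass (adjusted p = 0.171 and 0.169).

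In the 11 other arrays the same list had a median slope of -0.05, with 21 of 29 slopes below 0. Its mean score per array was -0.26 to -0.09 in high arrays, 0.22 to 0.43 in low arrays and -0.23 to 0.13 in the others, so the low arrays were above all others. In the TCA cycle list 16 of 19 genes had lower means and 3 passed (15.8%, against 4.87% of all genes). Among them were Suclg1, lower by -0.40 (SE 0.06), and Idh3b, by -0.38 (SE 0.07). In the respiratory chain and ATP synthase list all 35 measured genes had lower means with a median of -0.15, which was 0.01 on the deposited values, where the median of all genes was 0.16. In the main comparison 3 of that list passed (8.57%), among them Ndufs1 and Ndufs3, core subunits of complex I, at -0.32 (SE 0.04) and -0.38 (SE 0.07). Hspd1, the mitochondrial chaperonin, was lower by -0.41 (SE 0.03, adjusted p = 0.00904), and Prdx3, a mitochondrial peroxiredoxin, by -0.30 (SE 0.05). Ldhd, the D-lactate dehydrogenase of mitochondria, averaged 8.19 ± 0.17 in high arrays and 9.64 ± 0.18 in low arrays (SD, n = 4 each), a difference of -1.45 (SE 0.11, adjusted p = 0.00904).

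Genes of glucose uptake and glycolysis went both ways. Of 22 measured genes, 5 passed as higher and 2 as lower (together 31.8%, against 4.87% of all genes), with a median of 0.15. Pfkp, the platelet-type phosphofructokinase, read 10.34, 10.76, 10.55 and 10.17 in high arrays, against 8.88, 9.17, 8.41 and 8.64 in low arrays, a 3.20-fold difference. Pfkl, the liver type, was 0.89 higher (SE 0.14) and Hk1, a hexokinase that red cells also use, 0.78 higher (SE 0.14). Slc2a1, a glucose transporter of many cell types, was 0.65 higher (SE 0.12). Slc16a1, a lactate carrier, was 0.35 higher (SE 0.07). Slc2a4, the insulin-responsive glucose transporter of muscle, was lower by -0.72 (SE 0.14), and Pgam2, the muscle phosphoglycerate mutase, by -0.60 (SE 0.11, adjusted p = 0.0422). Another probe set of Slc2a4 differed by only -0.06 (adjusted p = 0.794 by limma). In the 11 other arrays the slope of Pfkp was 0.01 (SE 0.13) and that of Hk1 0.03 (SE 0.10).

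**Figure D3:**
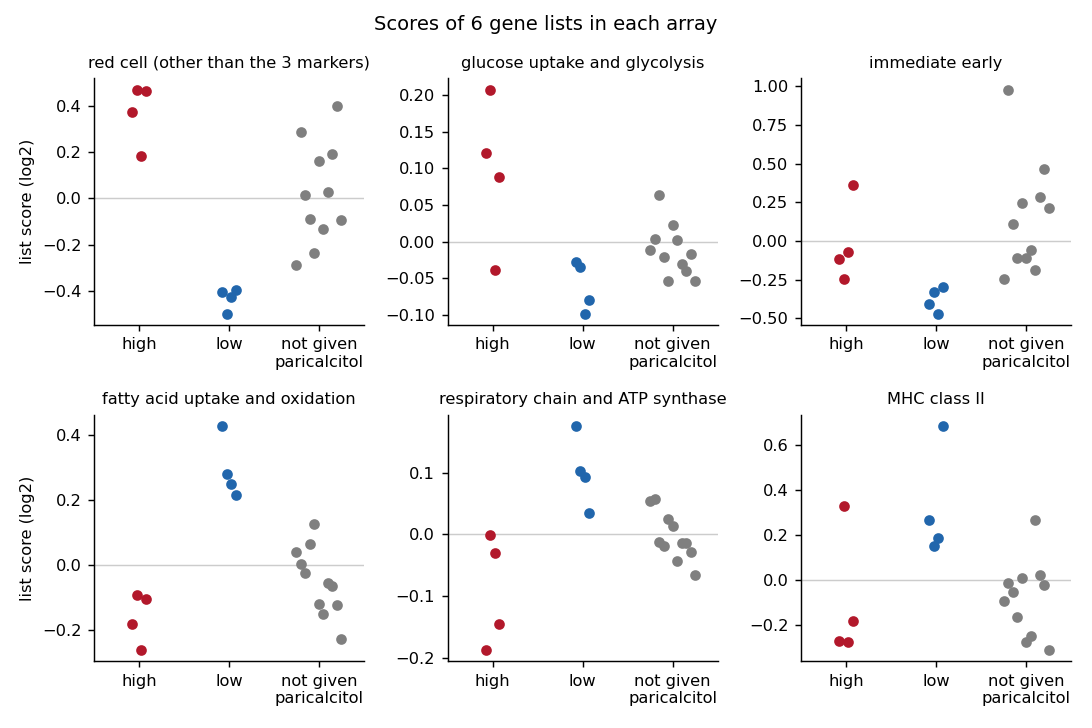
Score of 6 gene lists in each array, the mean over members of the log2 deviation from the gene's mean over 19 arrays, in high arrays, low arrays and the 11 arrays not given paricalcitol (1 point per array). For fatty acid uptake and oxidation the low arrays run from 0.22 to 0.43, above the highest other array at 0.13.

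Among channels and calcium handling of the heart muscle, single genes passed in both directions. Kcne1, the accessory subunit of the slow potassium current, read 8.12, 7.65, 8.87 and 8.34 in high arrays, while 2 low arrays were at the floor and the other 2 at 5.48 and 5.88 (adjusted p = 0.00904); in the 11 other arrays it ran from the floor to 7.76. Kcna5, a voltage-gated potassium channel, was lower by -1.11 (SE 0.17). Dhrs7c, a dehydrogenase of the sarcoplasmic reticulum, read 7.36, 7.66, 6.50 and 7.63 in high arrays, against 10.10, 9.58, 10.00 and 9.25 in low arrays, the largest fall among genes that passed without overlap (-2.44, SE 0.31, adjusted p = 0.021). Hrc, a calcium-binding protein of the same compartment, was lower by -0.97 (SE 0.12), and Slc8a1, the sodium-calcium exchanger, was 0.63 higher (SE 0.08). In the cardiac ion channel list 1 gene passed in each direction of 17, and likewise 1 in each direction of 18 in calcium handling. These are 11.8% and 11.1% of the lists, against 4.87% of all genes.

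Few contractile and stress genes passed, near the share of all genes. In limma 0 of 21 measured contractile genes passed, with 3 at an unadjusted p under 0.05. Of 16 measured natriuretic peptide and stress genes 1 passed (6.25%), Ccn2. Over all genes tested, 4.87% passed and 22.2% were at an unadjusted p under 0.05. Myh6, the fast myosin heavy chain, read 12.04, 13.16, 13.73 and 13.41 in high arrays, against 13.38, 13.63, 14.02 and 13.73 in low arrays (adjusted p = 0.283), and the groups overlapped. Nppb, the B-type natriuretic peptide, read 13.65, 13.94, 13.66 and 13.68 in high arrays, against 13.39, 13.02, 13.04 and 13.34 in low arrays, without overlap but short of the threshold (adjusted p = 0.0661). Nppa, the A-type peptide, was near the top of the scale in all arrays, with adjusted p = 0.165. Myl4, the atrial light chain, had a difference of 1.18 (SE 0.24, adjusted p = 0.0502). Des, the intermediate filament desmin, passed at 0.36 higher (SE 0.06).

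Genes of collagens and matrix passed about as often as genes in general: 2 of 35 measured (5.71%), both higher, against 4.87% of all genes, with a median of 0.14. Thbs4, a matricellular thrombospondin, read 9.37, 9.49, 9.47 and 9.32 in high arrays, against 6.67, 7.49, 6.14 and 7.11 in low arrays, a 5.89-fold difference (adjusted p = 0.0166). Ccn2, a growth factor of connective tissue, read 13.36, 13.22, 13.22 and 12.89 in high arrays, against 12.22, 11.93, 11.50 and 12.40 in low arrays. Neither overlapped. Ltbp2, which binds latent TGF-beta in the matrix, read 7.98, 7.47, 8.45 and 8.39 in high arrays, with 2 low arrays at the floor and 2 at 6.49 and 4.79. Of the basement membrane, Lama5 and Lamb1, both laminin chains, were 1.63 higher (SE 0.25) and 0.53 higher (SE 0.07). Col1a1, Col3a1 and Fn1, the main fibrillar collagens and fibronectin, did not pass (adjusted p = 0.846, 0.605 and 0.408). Tgfb1, a cytokine that drives matrix deposition, was 0.89 higher (SE 0.12, adjusted p = 0.0241).

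Vessel genes went both ways. Of 15 measured endothelial genes, 5 had higher and 10 lower means, with a median of -0.10. In each direction 2 passed, together 26.7% against 4.87% of all genes. The endothelial markers Pecam1 and Kdr did not pass, with differences of -0.14 and 0.17 (adjusted p = 0.632 and 0.554 by limma). Vwf, the von Willebrand factor of endothelium and platelets, was 0.92 higher (SE 0.18) and Eng, a TGF-beta coreceptor, 0.53 higher (SE 0.10), while the receptor kinases Tie1 and Tek were lower by -0.61 (SE 0.06) and -0.26 (SE 0.05). Tie1 read 8.42, 8.29, 8.21 and 8.44 in high arrays, against 8.94, 8.98, 8.94 and 8.93 in low arrays. Ace, the enzyme that enalapril inhibits, read 8.03, 7.92, 7.85 and 7.89 in high arrays, against 7.30, 7.31, 6.85 and 6.79 in low arrays, a 1.82-fold difference (adjusted p = 0.0163). Mme, the peptidase neprilysin, passed as lower, but near the floor, at 4.45, 4.30 and 2 arrays at the floor in high arrays against 4.25 to 4.91 in low arrays. Vdr, the receptor that paricalcitol activates, was low at 5.03, 5.40, 6.00 and 5.68 in high arrays and 5.83, 6.04, 6.10 and 5.87 in low arrays, and the groups overlapped (adjusted p = 0.227). Its partners Rxrb and Rxrg, retinoid X receptors, were lower by -0.40 (SE 0.05) and -0.88 (SE 0.17).

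White cell and platelet genes were tracked because blood carries them too. Of 12 measured T cell genes 8 had lower means and 0 passed, with 1 at an unadjusted p under 0.05 in limma. Of 8 B cell genes 4 were higher and 4 lower, and 1 passed, Cd74. Of 12 platelet genes 10 were higher and 1 passed, Vwf. In limma, 0 of 11 measured neutrophil genes and 0 of 18 macrophage genes passed (2 and 5 at an unadjusted p under 0.05, all higher), and 17 of the macrophage genes had higher means, with a median of 0.49. Of all genes tested, 4.87% passed and 22.2% were at an unadjusted p under 0.05 in limma. In lists this short, 0 or 1 passing gene lies near the share of all genes. S100a9, a calcium-binding protein of neutrophils, read 8.53, 10.25, 8.57 and 9.38 in high arrays, against 7.55, 7.55, 6.26 and 7.06 in low arrays (adjusted p = 0.0557), and its partner S100a8 missed the threshold as well (adjusted p = 0.0863). Both were without overlap, but their slopes in the 11 other arrays were -0.37 (SE 0.39) and -0.21 (SE 0.25). Csf3r, another neutrophil marker, had a difference of -0.21 (adjusted p = 0.612 by limma). Cd163, the scavenger receptor by which macrophages take up haemoglobin, had a difference of 1.36 (SE 0.31, adjusted p = 0.0677) and Pf4, a platelet chemokine, one of 0.81 (SE 0.23, adjusted p = 0.108), and neither passed. The platelet markers Ppbp and Itga2b had differences of 0.13 and 0.05 (adjusted p = 0.784 and 0.96 by limma). Cd74, the invariant chain of MHC class II, read 10.72, 10.85, 11.33 and 11.72 in high arrays, against 11.98, 12.03, 12.37 and 12.05 in low arrays (adjusted p = 0.0352). In its list 8 of 10 genes had lower means, with a median of -0.59, and RT1-Ba, a class II chain, missed the threshold at -0.75 (SE 0.16, adjusted p = 0.0567). The score of the macrophage list, a mean deviation over its genes, ran from -0.01 to 0.52 in high arrays and from -0.68 to 0.44 in low arrays. Its part in the differences was not tested.

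Of the remaining genes with the largest differences, several were bright in high arrays and faint in low arrays. Rbm3, an RNA-binding protein induced by cold and named after its values were seen, read 11.58, 11.98, 11.96 and 11.58 in high arrays, against 9.33, 9.54, 9.45 and 9.53 in low arrays, a 4.97-fold difference with adjusted p = 0.00854. Its slope in the other 11 arrays was 0.00 (SE 0.24). Mthfd2, a mitochondrial enzyme of one-carbon metabolism, Fam83h, a keratin-associated protein, and Urah, of urate breakdown, were at the floor in all low arrays and at 6.52 to 7.65, 7.09 to 8.42 and 6.13 to 6.86 in high arrays. Pcp4, a regulator of calmodulin, was 5.88-fold higher, and Slc16a12, a monocarboxylate carrier family member, 6.54-fold. Gucy2c, a guanylyl cyclase, and Tbl2 each had 1 low array at the floor and passed with adjusted p = 0.0285 and 0.038.

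Clock genes went both ways. Dbp, a transcription factor of the circadian clock, read 8.11, 6.79, 7.66 and 8.08 in high arrays, against 9.42, 9.02, 9.34 and 9.45 in low arrays, and Nr1d1, a clock repressor, read 8.63, 8.62, 8.01 and 8.22 in high arrays, against 9.31, 9.22, 8.98 and 9.02 in low arrays. With Nr1d2 they were the 3 of 15 clock genes that passed (20%, against 4.87% of all genes), all lower, in a list added after values were seen. Of the 15, 6 had higher means, 4 of them at an unadjusted p under 0.05: Cry1, a clock repressor, had a difference of 0.51, and Clock, Bmal1 and Cry2 had 0.49, 0.97 and 0.30. The median of the list was -0.14, and 0.00 in paricalcitol arrays alone. Among other large falls, Btnl9, a butyrophilin-like protein, was lower by -1.74 (SE 0.20), Doc2g by -1.63 (SE 0.15), Myo10, an unconventional myosin, by -1.40 (SE 0.21), and LOC102547411 by -2.17 (SE 0.21). Gnrh1, the gonadotropin-releasing hormone, had 1 high array at the floor (adjusted p = 0.038), Tbc1d9, Klrb1c, a receptor of natural killer cells, and Acmsd each had 3, and Irak1bp1 had all 4. Of stress proteins, Herpud1, of the endoplasmic reticulum, and Hsph1, a heat shock protein, were lower by -0.59 (SE 0.07) and -0.61 (SE 0.11), and Ptgs2, the inducible cyclooxygenase, was 1.32 higher (SE 0.25).

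The difference was also taken within each drug group. Of all genes tested, 66.8% had the same sign of difference in paricalcitol and in combination arrays, and 2 genes (0.0141%) passed the test of the interaction, with 686 at an unadjusted p under 0.05 (4.83%). Both were near the floor: Rab11fip2 was at the floor in every array but the 2 low combination arrays, at 6.44 and 6.22, and Areg had a mean of 4.24 in high and 4.00 in low arrays. For Alox15 the difference was 5.71 in combination arrays and 4.30 in paricalcitol arrays, and for Dhrs7c -2.56 and -2.33. With 1 array left out, 29 to 58 genes passed the interaction test; one of its 4 arms then holds 1 array, which is assumed to vary like the others, so these counts say nothing of stability. Within 1 drug group alone, 8 genes passed in combination arrays and 5 in paricalcitol arrays.

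Set against the marker average, red cell genes had a median slope of 0.47 log2 units per unit under paricalcitol and 0.21 in the 11 other arrays. That slope under paricalcitol was the steepest of the lists, but these genes follow the same RNA as the markers. Their rank was thus set by the choice of markers and is only a description. MHC class II genes had -0.30 in the 8 arrays and 0.01 in the others, and fatty acid genes -0.21 and -0.05. Immediate early genes, among them Fos and Egr1, had 0.15 and 0.36; in the high and low contrast 18 of 24 were higher, and Fos and Egr1 did not pass (adjusted p = 0.0753 and 0.0823).

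**Figure D4:**
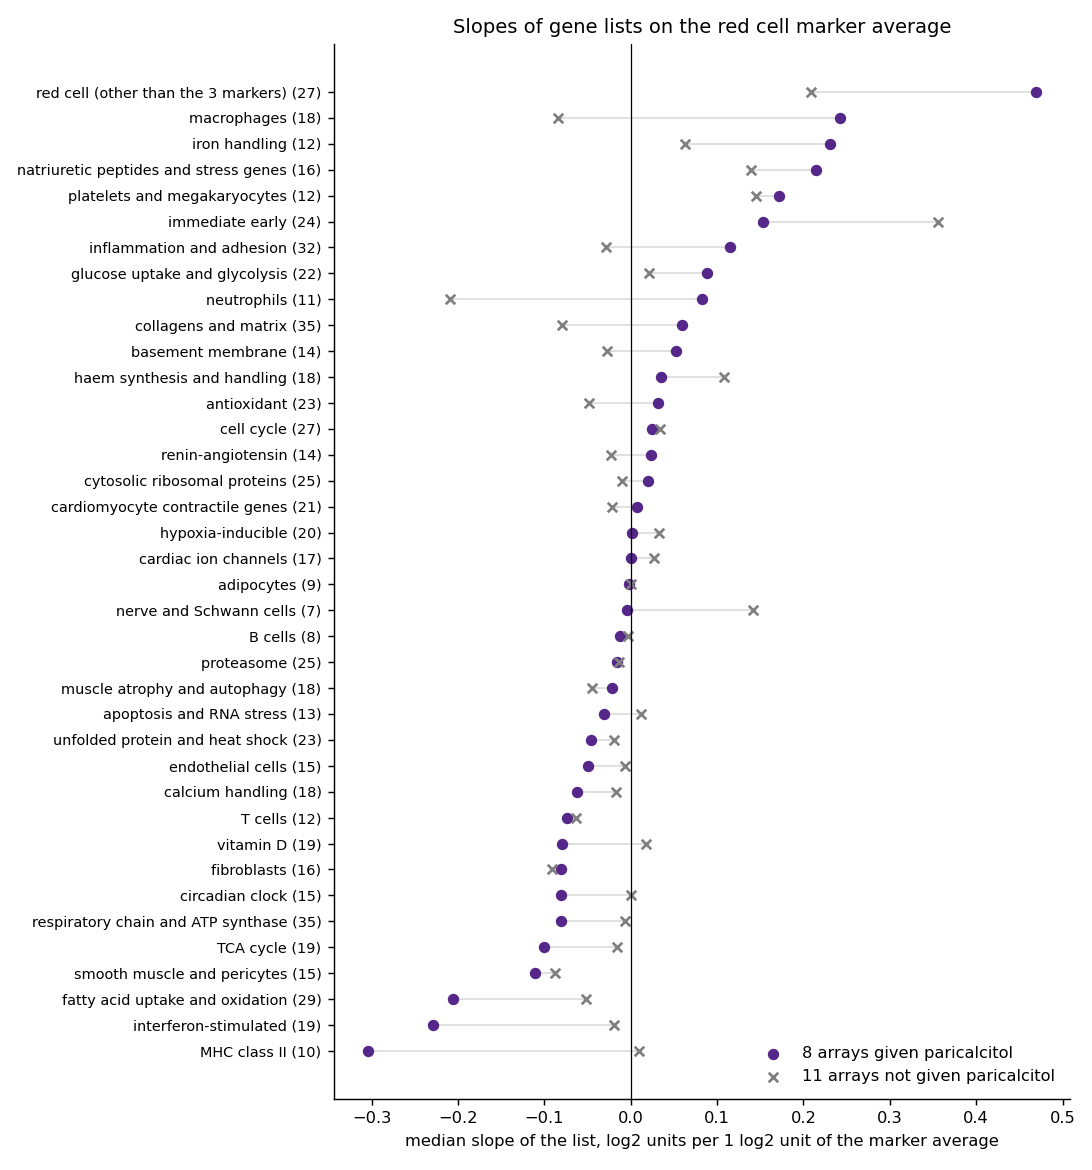
Median slope of each of 38 gene lists on the red cell marker average, in log2 units per log2 unit, in the 8 arrays given paricalcitol (filled) and in the 11 others (crosses), with the number of measured genes in brackets. Red cell genes, which follow the same RNA as the markers, have 0.47 and 0.21, and fatty acid genes -0.21 and -0.05.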

How the data were processed

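RNA of 19 rat left ventricles was hybridised to 1 Affymetrix array each. The authors deposited linear intensities, 1 per probe set and array, per the file headers; between 16.0% and 18.2% of an array's values were below 0, and what tools or normalization made them is not given in the sources used here. Per the labels' protocols, 5 ug of total RNA were labelled.

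The deposited intensities of all 19 arrays were quantile normalized, floored at 0 and converted to log2(intensity + 16). Of 31099 probe sets, 20826 named 1 gene; those naming several (436) or none (9780) and 57 controls were left out. Each of 14217 genes was taken from its probe set with the highest mean, and 14214 were tested after leaving out the 3 markers, with limma 3.58.1 in R 4.3.3, empirical Bayes moderation and a variance trend. Benjamini-Hochberg adjusted p under 0.05 passed. Dimmer probe sets of a named gene did not always follow the one used. Those of Gch1 and Tbl2 differed by -0.19 and -0.25 and those of Myo5c by 0.65 and -0.40, and none of these passed. Those of Bpgm and Ldhd passed in the direction of the one used, at 1.521 and -1.345. The fits were first tested on simulated data.

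The 8 arrays given paricalcitol, the lists and the tests were chosen with earlier results of these data known; list counts and medians are descriptions without a test. Named genes are the markers, up to 12 per direction with the largest differences among those past the threshold without overlap, up to 4 of each list with the smallest p, the leading genes of the other arrays and of the interaction, and a panel of 21 cardiac genes, of which 20 were measured and 2 (Cd36 and Ace) passed. Named after their values were seen were Rhd, Add2, Klf1, Gata1, Hba-a3, Slc25a37, Gch1, Rbm3, Hadh, Slc2a4, Slc16a1, the other membrane and clock genes and the genes of the slope difference.

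Replicates share numbers between paricalcitol and combination. Deviations from group means correlated by 0.195, 0.328, 0.148 and 0.161 between arrays of numbers 1 to 4, all above 0.1, so fits with the number as a block were run as alternatives. Arrays of different numbers were not compared, so these correlations alone cannot show pairing. Both arrays of each number lay on the same side of the split, so the split itself adds to these correlations. A fixed block could not be fitted, and the random one used had a consensus correlation of -0.0992 once the split was in the fit, so no pairing showed beyond the split. Nothing in the labels says whether arrays came from separate litters or days. Alternatives were other normalizations, pseudocounts, filters, splits, weights and fits, and each array left out in turn.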

Additional observations from a re-analysis of the deposited data

Results flagged for a closer look

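Single arrays stood apart from the other 3 of their side in 16 of 236 groups of 4 tested, by Dixon's test of the gap to the nearest array, which chance alone gives in about 1 of 20 groups (5%). For Epb42, Tbc1d9, Klrb1c and Acmsd the other 3 values were tied at the floor, and for Nppa they were tied at 14.42. With such ties any gap is flagged, and the 5% does not hold for these groups.

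Combination replicate 2, a low array, was at 12.37 for Cd74, against 11.98 to 12.05 in the other 3. It was also at 9.83 for Slc27a1, 11.41 for Etfdh, 12.81 for Hadh and 11.41 for Herpud1, each above the other 3 low arrays. Paricalcitol replicate 3, also low, was at 6.53 for Gata1 and 12.42 for Rpl3, a ribosomal protein, against 5.07 to 5.29 and 11.56 to 11.67 in the other 3. Combination replicate 3 was the one low array above the floor for Epb42, at 4.09.

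Among high arrays, combination replicate 4 was at 10.47 for Cpt2, against 10.11 to 10.13 in the other 3. Combination replicate 1 was at 11.88 for Suclg1, 14.39 for Nppa, 4.51 for Tbc1d9 and 4.43 for Acmsd. Paricalcitol replicate 4 was at 13.94 for Nppb and 8.87 for Nr1d2, and paricalcitol replicate 1 at 4.95 for Klrb1c.

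Effects differed between groups by the test itself for 6 genes. High minus low in combination minus that in paricalcitol was -2.33 for Rab11fip2 and -0.49 for Areg. The slope in paricalcitol arrays minus that in the other 11 was -0.35 for Polr2i, -0.25 for Apoo, -0.31 for Ube2b and -0.60 for Ddx18.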

How the results depend on the processing

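Results are given as counts of genes past an adjusted p of 0.05 in limma. For high against low arrays (692 genes), 13 passed on the deposited values, 1201 with dimmer genes left out, 1884 with all 19 arrays in the fit, 350 with the marker average as a continuous term, 5 in paricalcitol arrays only and 8 in combination arrays only; 38 to 404 passed with 1 array left out. The 692 stood at 526 to 715 under the other settings except the random replicate block, which gave 1023 at a consensus correlation of -0.0992, with all 692 among them. For the paired fit of the other arrays with a fixed replicate block, 0 of the 9 slopes passed (1209 at an unadjusted p under 0.05). Those 9 became 0 on deposited values (1435 unadjusted), 19 with dimmer genes left out, 4 with probe sets averaged, 0 without the baseline arrays, 783 with all 19 arrays, and 0 to 8 with 1 array left out.

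The 2 interaction genes became 0 with cyclic loess, dimmer genes left out, pseudocounts of 32 or 64 or no variance trend (677, 250, 693, 693 and 763 unadjusted), 4 with array weights, 13 with probe sets tested singly, and 29 to 58 with 1 array left out. The slope difference, chosen after seeing the data, was 4 genes, with 0 on deposited values, on arrays centred on their medians and with dimmer genes left out (2948, 1582 and 1046 unadjusted), 1 with cyclic loess, and 0 to 11 with 1 array left out. The cause of these changes was not tested. With each of the 8 arrays left out in turn, Hemgn, Mkrn1, Myo5c, Gch1, Hspd1, Kcne1, Rbm3, Ldhd, Polr2i, Apoo, Ube2b and Bmp6 passed each time. Of named genes 5 values changed sign, none of them past the threshold in the main comparison: Cpt1b to 0.0245 on deposited values, and Col1a1 to 0.0578 there, 0.19 and 0.06 without paricalcitol replicates 3 and 4 (range -0.39 to 0.19 with 1 array left out) and 0.35 in combination arrays only. On deposited values, genes were higher by a median of 0.16 in high arrays, and 76.9% of calls were higher, against 49.3% as reported. Faint genes near the floor have differences that depend on the added 16.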

Other observations

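Bmp6 and Rpl3 also differed between high and low arrays. Bmp6, a growth factor that in mice raises hepcidin in the liver, read 9.21, 9.10, 9.29 and 9.24 in high arrays, against 8.68, 8.65, 8.60 and 8.72 in low arrays, 0.55 higher (SE 0.05, adjusted p = 0.0115 by limma). Hamp, hepcidin itself, overlapped between the groups, with a difference of 1.12 (SE 0.30, adjusted p = 0.094), and Steap3, a ferrireductase of red cell precursors, was at -0.91 (SE 0.26, adjusted p = 0.104). Rpl3 was 1.04 higher (SE 0.20, adjusted p = 0.0443), the 1 of 25 measured cytosolic ribosomal protein genes that passed (4%, against 4.87% of all genes), in a list with a median of 0.04. The potassium channel partner Kcnip2 was at -0.47 (SE 0.09, adjusted p = 0.051) and did not pass.

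The first principal component of the 7108 brighter genes held 27.6% of the variance and ran from 4.82 to 18.3 in high arrays, from -24.4 to -11.8 in low arrays and from -5.58 to 10.7 in the other 11.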
